A study of Mus musculus with 8 samples.

Results

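B16 mouse melanoma cells treated with SEMA3E for 2 h were compared with untreated B16 cells across all genes of the array. The members were the 2 arrays titled as SEMA3E at 2 h and the 2 titled as control, 4 of the 8 arrays of the series; the others held cells treated for 8 h with SEMA3E or with cytochalasin D. B16 is an established pigmented melanoma line, grown here in medium with serum, and each array carried Cy3-labelled RNA from 1 of 2 biological replicates of a group. The controls are labelled 0 h, so there was no untreated group kept for 2 h, and time in culture and handling cannot be told apart from SEMA3E. The labels give neither the dose of SEMA3E nor a vehicle, and they call the replicates biological without saying whether these were separate cultures, so p-values measure the spread between these samples only.

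SEMA3E is a secreted semaphorin, a protein first known for steering axons and blood vessels. It binds plexin D1, whose intracellular domain acts on small GTPases, loosens integrin adhesion and remodels actin. Genes that answer a stimulus early fall into families with a common upstream switch: the AP-1, EGR and KLF factors and the feedback inhibitors of ERK signalling, the actin-sensitive targets of SRF and of YAP-TAZ, and the stress genes controlled by ATF4 and p53. In melanocytes, actin motors also carry the pigment granules, the melanosomes, to the cell edge.

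The cells carried the labelled identity. All 7 melanocyte markers were well above background on all 4 arrays, and their summed level was 6.51 and 6.59 in the controls and 6.81 and 7.10 after SEMA3E (log2, relative to the 75th percentile of the array, the scale of every level below). The summed levels of the fibroblast, macrophage, T cell, endothelial and keratinocyte lists lay between -6.07 and 0.12. Above background on both controls were 5 of 8 fibroblast, 4 of 8 macrophage, 3 of 5 T cell, 2 of 6 endothelial and 2 of 6 keratinocyte markers. On both SEMA3E arrays these counts were 3, 3, 3, 2 and 1. Col1a1, Cd68, Lck, Pecam1 and Krt14 were above background on all 4 arrays, while Pdgfra, Lyz2, Cdh5, Cd8a and Krt10 were on none of the 4.

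The SEMA3E arrays were dimmer. The 75th percentile of the processed signal over all spots was 59.33 and 61.14 on them against 128.9 and 131.5 on the controls, and 39.1% and 37.8% of spots were well above background against 45.1% and 44.7%. After scaling, the 28573 probes below background on all 4 arrays lay a median of 1.14 higher with SEMA3E. A dim gene thus had less room to lie lower than to lie higher, and 1140 genes were above background on both arrays in control only against 15 with SEMA3E only. SEMA3E replicate 2 and control replicate 2 also stood apart. By over 1 log2 unit, SEMA3E replicate 2 was the lowest of the 4 arrays in 867 genes and the highest in 200. These counts were 496 and 659 for control replicate 2, 172 and 140 for SEMA3E replicate 1, and 53 and 29 for control replicate 1. Over the genes tested, control replicate 1 correlated at 0.987 with SEMA3E replicate 1 and at 0.975 with control replicate 2. With the SEMA3E and cytochalasin D arrays of 8 h, control replicate 2 correlated at 0.984 to 0.994 and control replicate 1 at 0.972 to 0.981. Both SEMA3E arrays occupied neighbouring positions on the 1 slide, as did both controls, so position and treatment cannot be told apart.

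No gene changed at the threshold of the test. Of 17386 genes tested with limma on all 8 arrays, 0 had a Benjamini-Hochberg adjusted p under 0.05 (0% called), and the smallest adjusted p was 0.361. At an unadjusted p under 0.05 there were 969 higher genes (5.57%) and 748 lower genes (4.3%). Both SEMA3E arrays lay above both controls in 4188 genes (24.1%) and below both in 2719 (15.6%). Among the genes without overlap, 615 were higher and 641 lower by over 2-fold between group means. Over 2-fold also separated the 2 controls from each other in 13.2% of genes, and the 2 SEMA3E arrays in 13.2%. After normexp background correction 1 gene passed, and 3338 had an adjusted p under 0.06, of which 3294 were higher, so that count sits at the edge of the threshold. The count of changed genes was 484 without SEMA3E replicate 1 (32 higher and 452 lower) and 1 without control replicate 1, and 0 without either of the other 2 arrays. Every gene below is therefore described by its levels and by whether the groups overlapped, and the test it was given is limma's, with an adjusted p of 0.361 or more.

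**Figure D1:**
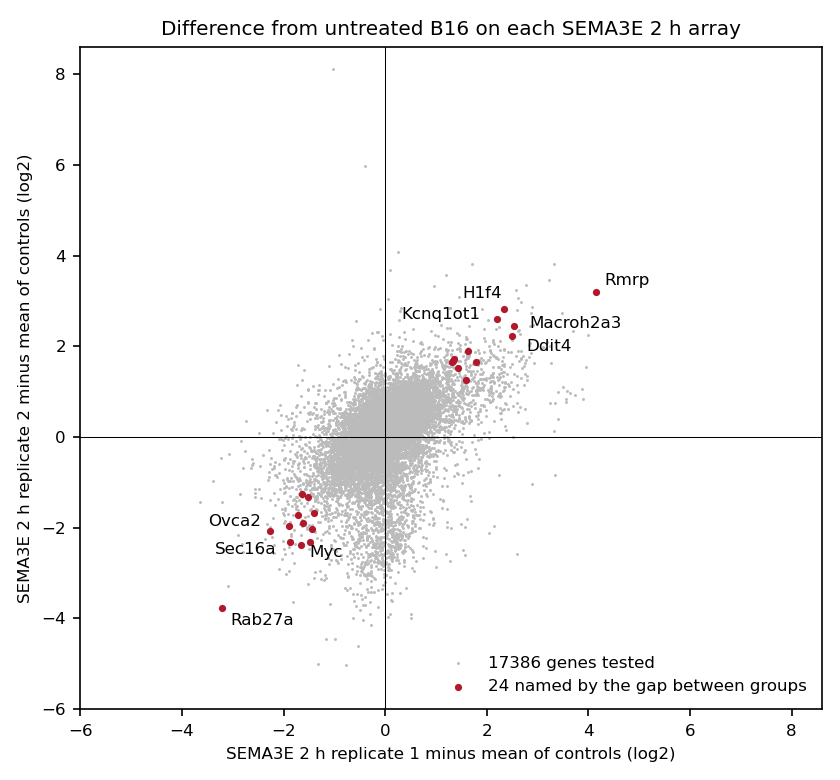
Each point is 1 of 17386 genes, with its level on SEMA3E replicate 1 (x axis) and on replicate 2 (y axis) minus the mean of the 2 controls (log2), and red points are the 24 genes named for the widest gap between the groups. Rmrp lies far out in the upper right corner and Rab27a in the lower left, and a band of genes below 0 on replicate 2 lies near 0 on replicate 1.

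Among genes above background on all 4 arrays, clone and locus names left out, the 2 widest gaps upward belonged to non-coding RNAs. Their probes are shown as the scanner files give them, 60 bases each and without coordinates, because the result rests on them:
Rmrp: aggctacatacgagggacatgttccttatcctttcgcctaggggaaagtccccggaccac
Kcnq1ot1, brighter probe: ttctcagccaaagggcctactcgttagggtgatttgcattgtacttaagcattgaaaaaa
Kcnq1ot1, second probe: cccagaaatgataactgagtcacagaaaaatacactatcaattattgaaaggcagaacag
Rmrp, which encodes the RNA part of RNase MRP, a ribosomal RNA processing enzyme, lay at -5.61 and -5.74 in the controls and at -1.51 and -2.47 after SEMA3E. Both SEMA3E arrays thus stood more than 3 log2 units above both controls, a 12.8-fold difference of the means (3.68 ± 0.45, SE, limma adjusted p = 0.361). Kcnq1ot1, a long RNA that silences its imprinted cluster, was at -5.27 and -5.54 in control and at -3.21 and -2.80 with SEMA3E, which is 5.28-fold (2.40 ± 0.36). Its second probe was above background on none of the 4 arrays, so the difference rests on the brighter probe.

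Chromatin and stress genes followed. H1f4, a linker histone, measured -1.67 and -2.22 in the controls and 0.39 and 0.89 with SEMA3E, 5.98-fold by the means (2.58 ± 0.33). Macroh2a3, named as a macroH2A histone variant, measured -5.91 and -7.29 against -4.10 and -4.38 (2.36 ± 0.47). Ddit4, a stress-induced inhibitor of mTORC1, had -2.07 and -4.21 in control and -0.61 and -0.69 with SEMA3E. Its SEMA3E arrays agreed closely and its controls did not. The difference was 2.49 ± 0.74 (5.62-fold), where limma drew the SE from the spread within all groups of the series. Like Rmrp, Kcnq1ot1 and Macroh2a3, the other 7 genes with the widest upward gaps were dim in control. Hoxb8, a homeobox factor, differed by 1.72 ± 0.45, Atg9a, a membrane protein of autophagy, by 1.77 ± 0.47, and Fmn2, a formin that nucleates actin, by 1.42 ± 0.26. Grb7, an adaptor of receptor tyrosine kinases, differed by 1.49 ± 0.31, Mcidas, a regulator of multiciliated cells, by 1.53 ± 0.29, and Fam107a, an actin-associated protein, by 1.47 ± 0.31. Map3k12, a kinase of the JNK pathway, was the dimmest of them. The mean levels of these 7 in control lay between -7.71 and -4.99, a range that also holds Rmrp (-5.67), Kcnq1ot1 (-5.405) and Macroh2a3. In that range the shift of the probes below background bears on the comparison, and its part in these values was not tested.

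The widest gap downward was that of Rab27a, the GTPase that ties melanosomes through melanophilin to myosin Va. It lay at -1.29 and -1.31 in the controls and at -4.52 and -5.07 with SEMA3E, an 11.3-fold difference (-3.50 ± 0.42, limma adjusted p = 0.361). Its second tested probe differed by -1.22 and was above background on neither SEMA3E array. Myc, the growth-promoting transcription factor, measured 0.79 and 1.39 in control and -0.57 and -1.29 with SEMA3E, 4.05-fold lower (-2.02 ± 0.34). Ovca2, a hydrolase, lay at -4.09 and -3.81 against -6.21 and -6.01 (-2.16 ± 0.31), and Zfp534, a zinc finger gene, at -3.82 and -3.87 against -5.57 on both SEMA3E arrays (-1.72 ± 0.34). In Rab27a and Zfp534 the 2 controls differed by less than 0.1, and the groups were well apart.

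Several of the other lower genes serve basic cell functions. Atic, an enzyme of purine synthesis, differed by -1.90 ± 0.37, Prpf19, a splicing factor, by -1.74 ± 0.35, Sec16a, a scaffold of endoplasmic reticulum exit sites, by -2.09 ± 0.47, and Cenpb, a centromere protein, by -1.53 ± 0.29. Ap1ar, an adaptor of vesicle traffic, differed by -1.93 ± 0.42, Aunip, a partner of Aurora A, by -1.45 ± 0.28, Ifi208, an interferon-inducible gene, by -1.43 ± 0.25, and Tatdn2, a nuclease, by -1.76 ± 0.53. Probes of the same gene did not all show this. The second tested probe differed by 0.53 in Sec16a and by 0.81 in Cenpb, both above background on all 4 arrays, while those of Atic, Ap1ar and Ifi208 differed by -0.78, -0.77 and -0.49. Over all 3465 genes with a second probe above background on the 4 arrays, the 2 probes had the same sign in 62.3%, and in 78.7% of the 244 whose brightest probe differed by over 2-fold.

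**Figure D2:**
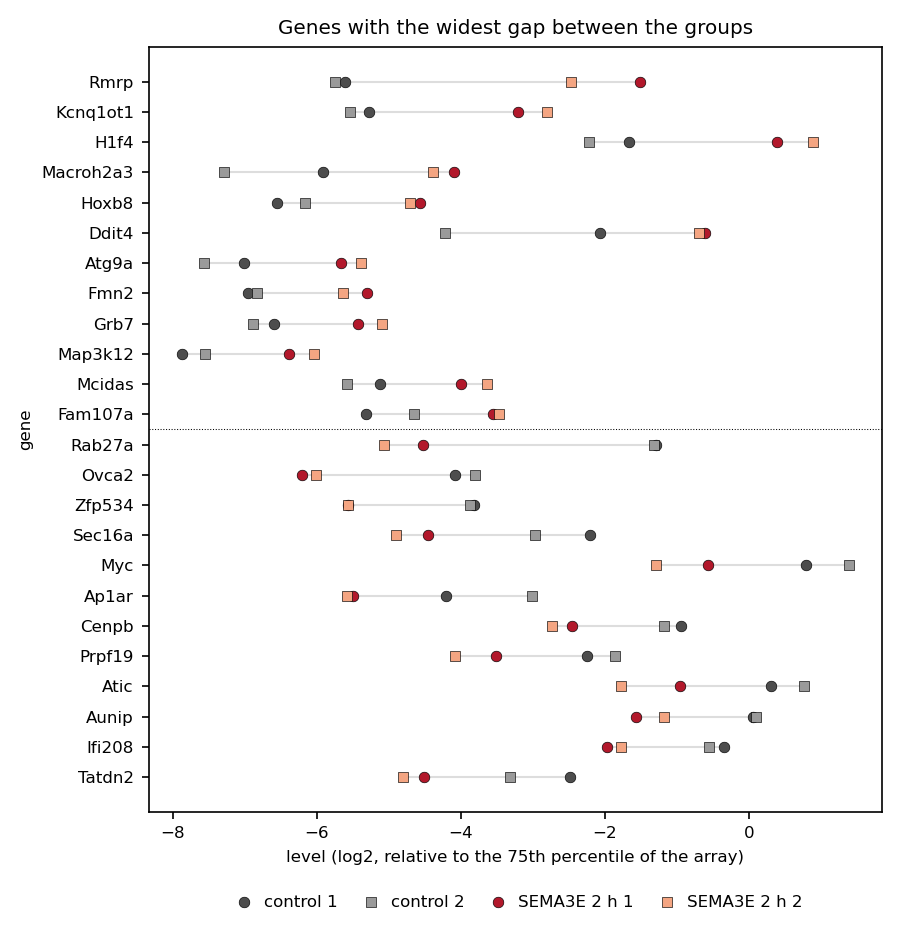
Levels (x axis, log2 relative to the 75th percentile of the array) of the 12 genes with the widest upward gap, above the dotted line, and the 12 with the widest downward gap, on the 2 control arrays (grey) and the 2 SEMA3E 2 h arrays (red and orange). The controls of Rmrp sit at -5.61 and -5.74 and its SEMA3E arrays at -1.51 and -2.47, and in Rab27a the order is turned.

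The smallest unadjusted p-values in limma added few names. They belonged to Rab27a (4.08e-05), Rmrp (4.99e-05), H1f4 (7.18e-05), the predicted gene Gm5039 (9.42e-05), an intergenic RNA (1.29e-04) and Patj (1.37e-04), all with an adjusted p of 0.361. The intergenic RNA is named in the files by the interval chr15:61919018-61935580 with a trailing R, and mm9 is the build in their headers. It was above background on both SEMA3E arrays, at -6.55 and -6.07, and on neither control array, at least 7.83-fold higher; at least means that the lowest signal marked as above background stood in for a control below it. Its other 4 probes were above background on 0 or 1 of the 4 arrays. Patj, a scaffold of cell polarity, measured -4.34 and -4.81 against -6.66 and -7.49 (-2.50 ± 0.36), and its 3 other tested probes differed by -0.47, -0.24 and -0.39. Gm5039 was measured above background in control alone and was at least 3.81-fold lower.

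Genes measured above background in 1 group only were dim, and their folds are bounds or near background. With SEMA3E only, the antisense RNA Bcas3os2 was at least 6.08-fold higher, Trim69, a ubiquitin ligase, at least 3.89-fold, and by the group means the olfactory receptor Olfr985 was 2.74-fold and the elongation factor Tcea3 3.22-fold higher. In control only, Timm29, a part of mitochondrial protein import, was at least 2.56-fold lower after SEMA3E, Traf3ip1, a protein of cilia, 3.06-fold, and the zinc finger genes Zfp983 and Zfp324 3.38-fold and 2.70-fold. After normexp background correction these last 4 and Gm5039 lay above 0 (0.40 to 0.70), so their direction depended on the background.

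RNA of the receptor was present, and on their brightest probes the listed receptor genes did not separate the groups. Plxnd1, which encodes plexin D1, measured 3.12 and 3.24 in control and 2.97 and 3.17 with SEMA3E (-0.11 ± 0.26), with its second probe at -0.76. Sema3e lay near background, at -7.62 and -7.09 and at -7.31 and -7.97, above background on both controls and neither SEMA3E array. Nrp1, a coreceptor in some cells, was not among the genes tested. Of the 8 genes tested from the receptor list of 13, 0 were without overlap between the groups in either direction, against 24.1% and 15.6% of all genes, and their median difference was -0.10 against 0.05 for all genes. Second tested probes of Nrp2 and Itgb1 did separate the groups, by 1.03 and -2.35, that of Itgb1 above background on 1 SEMA3E array.

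Semaphorins and the effectors of plexins were spread around 0. Of 22 other semaphorin and plexin genes tested, 5 lay higher (22.7%) and 3 lower (13.6%) without overlap, shares near the 24.1% and 15.6% of all genes, with a median of 0.00. The membrane semaphorin gene Sema4g was at -7.25 and -6.85 against -6.43 and -5.44 (1.11 ± 0.41), and Sema7a differed by 1.01 ± 0.51. The secreted Sema3c was at -4.68 and -4.43 against -5.75 and -5.11 (-0.88 ± 0.38), and Plxna1 differed by -0.86 ± 0.58. Of 39 GTPases and regulators downstream of plexins, 11 lay higher (28.2%, against 24.1% of all genes) and 4 lower (10.3%, against 15.6%) without overlap, with a median of -0.04. Pip5k1a, a kinase that makes the lipid PIP2, differed by 1.13 ± 0.52, and its other probes by 0.93 and -0.33. The actin-severing gene Cfl2 read 0.75 and 0.76 in control and 0.92 and -1.89 with SEMA3E, and the GTPase gene Arf6 read 0.32 and 0.87 against 0.34 and -1.29. In both, SEMA3E replicate 2 alone was low, and the second probe of Cfl2 differed by 0.15.

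The immediate early factors showed no common induction at 2 h. Of 39 listed AP-1, EGR and KLF genes and their kind, 29 were tested, 11 above 0 and 18 below. Without overlap 3 lay higher, against 24.1% of all genes, and 9 lower (31% of those tested, against 15.6% of all genes), and 0 passed the test. The median was -0.23, and -0.43 and -0.17 on SEMA3E replicates 1 and 2 taken alone. It turned to 0.04 without control replicate 2 and 0.06 after normexp.

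The classic members differed from each other. Fos, a subunit of AP-1, read -3.62 and -3.45 in control and -4.17 and -4.41 with SEMA3E, lower on both (-0.76 ± 0.35). Jun, its partner, read -1.84 and -1.88 against -2.10 and -0.31, and Egr1, a zinc finger factor of the same early wave, read -6.20 and -5.98 against -6.16 and -3.87. In Jun and Egr1 SEMA3E replicate 2 alone was high. Klf4 and Klf2, related factors that restrain growth, had the lowest differences. Klf4 read -4.22 and -2.97 against -4.75 and -6.70 (-2.14 ± 0.65), and Klf2 read -0.75 and -1.09 against -1.65 and -3.72 (-1.77 ± 0.61). Both SEMA3E arrays were below both controls in these 2 genes, with replicate 2 about 2 log2 units below replicate 1. Srf, the serum response factor, read -1.04 and -1.26 against -1.12 and -3.28, and its second probe differed by -0.25, so only replicate 2 and 1 probe set it apart.

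ERK feedback genes were mixed. Of 19 tested, 3 lay higher (15.8%, against 24.1% of all genes) and 5 lower (26.3%, against 15.6%) without overlap, with a median of -0.18. Etv1, an ETS factor, read -1.68 and -2.05 in control and -1.36 and -0.34 with SEMA3E (1.01 ± 0.36), and Spred2, an inhibitor of the pathway, differed by 0.92 ± 0.62. Spry4, another inhibitor, was measured in control alone, at -7.58 and -6.87, and was at least 1.82-fold lower with SEMA3E. Dusp4, a phosphatase of ERK, read 0.54 and 0.96 against 0.25 and -3.06, below both controls on both arrays and far lower on replicate 2. In the Myc network, 3 of 10 tested genes lay higher (30%, against 24.1% of all genes) and 2 lower (20%, against 15.6%) without overlap. Myc was among the lower, while Max differed by 0.59 ± 0.32, Mlxipl, a glucose-responsive factor, by 0.80 ± 0.41, and Mga, a Max-binding repressor, by -1.19 ± 0.38, and the median was 0.03.

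**Figure D3:**
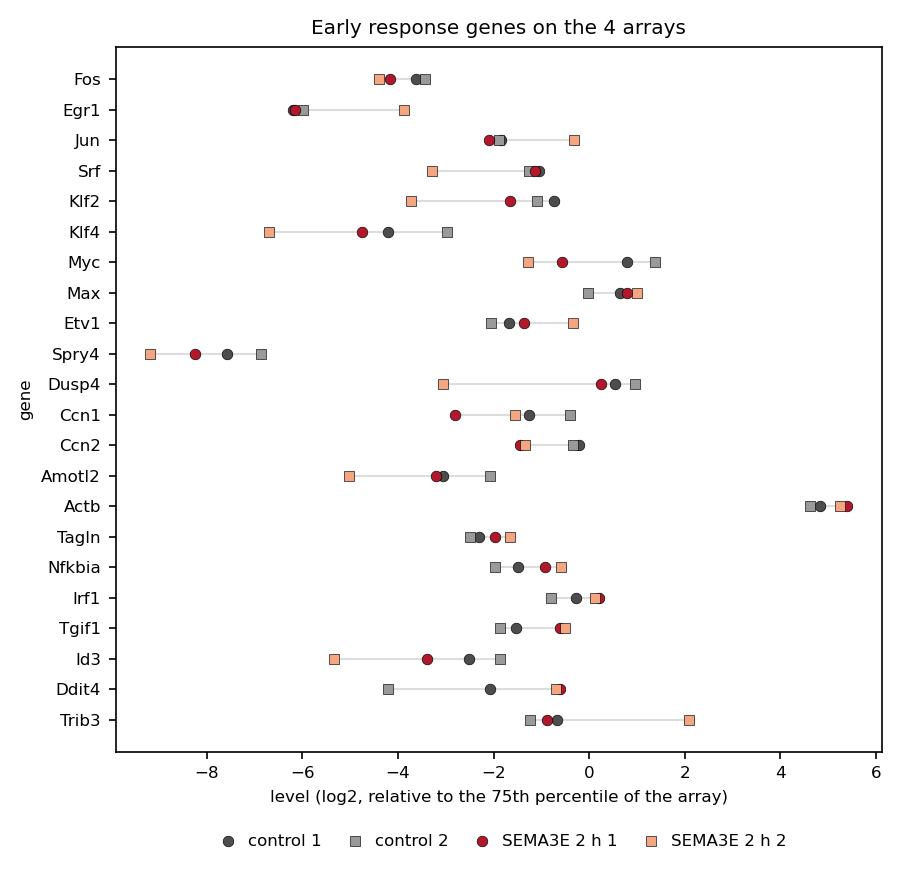
Levels (x axis, log2 relative to the 75th percentile of the array) of 22 early response genes on the 2 control arrays (grey) and the 2 SEMA3E 2 h arrays (red and orange). Myc, Ccn2 and Ccn1 lie lower on both SEMA3E arrays, and Ddit4, Nfkbia and Tgif1 higher on both. Srf, Egr1, Jun and Trib3 are set apart by SEMA3E replicate 2, and Dusp4 is lower on both but mostly on replicate 2.

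Of the genes that YAP and TAZ switch on through TEAD factors, the 2 matricellular genes were lower on both arrays. Ccn2 (connective tissue growth factor) read -0.21 and -0.35 in control and -1.45 and -1.34 with SEMA3E, 2.17-fold lower (-1.12 ± 0.26, limma adjusted p = 0.396). Ccn1 read -1.26 and -0.40 against -2.80 and -1.54, 2.54-fold lower (-1.34 ± 0.49). Amotl2, an angiomotin that holds YAP back and is also its target, read -3.06 and -2.08 against -3.21 and -5.03 (-1.55 ± 0.61). Of the 19 tested genes of the list, 13 lay below 0, and without overlap 4 were higher (21.1%, against 24.1% of all genes) and 6 lower (31.6%, against 15.6%). The median of -0.34 was 0.05 without SEMA3E replicate 1 and 0.05 without control replicate 2.

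The TEAD motif CATTCC, read on both strands, occurs in the 250 bases before the start of Ccn1 and Amotl2; these are shown with it in capitals, from RefSeq (GRCm38.p6), on the strand of the gene. Ccn1 is on the minus strand, chr3:145649986-145650235, and Amotl2 on the plus strand, chr9:102717554-102717803:
Ccn1: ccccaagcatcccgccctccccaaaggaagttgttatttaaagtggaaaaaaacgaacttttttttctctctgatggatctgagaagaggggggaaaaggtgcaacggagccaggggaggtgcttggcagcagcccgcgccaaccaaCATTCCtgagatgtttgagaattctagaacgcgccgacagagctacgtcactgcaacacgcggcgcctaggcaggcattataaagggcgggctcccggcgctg
Amotl2: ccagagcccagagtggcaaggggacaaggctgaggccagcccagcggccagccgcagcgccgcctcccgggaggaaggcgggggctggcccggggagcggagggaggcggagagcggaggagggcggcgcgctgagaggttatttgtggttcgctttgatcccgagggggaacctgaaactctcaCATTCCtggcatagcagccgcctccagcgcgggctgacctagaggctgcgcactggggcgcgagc
Of the 19 tested genes of the list, 12 had an entry of 250 bases in the promoter table, and 6 of them held the motif, against 3414 of 27025 genes in all (12.6%). The AP-1 motif TGACTCA, which does not overlap it, was held by 1 of the 12 and by 4.43% of all. Ccn2 had no entry. A match describes letters and does not show binding.

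Actin genes answering to SRF and MRTF were mostly between small shifts. Of 33 tested, 9 lay higher (27.3%, against 24.1% of all genes) and 0 lower (against 15.6%) without overlap, with a median of -0.03. Actb, the cytoskeletal beta-actin, read 4.82 and 4.62 in control and 5.40 and 5.24 with SEMA3E (0.60 ± 0.24), a difference that was -0.03 after quantile normalization. Tagln, a smooth muscle actin-binding gene, read -2.30 and -2.49 against -1.98 and -1.67 (0.58 ± 0.25). Actn1, an actin crosslinker, differed by -1.45 ± 0.72, with SEMA3E replicate 2 at -8.19 and the 3 other arrays between -6.18 and -5.04.

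Among the targets of NF-kB and of TGF-beta, single genes stood apart in both directions. Of 14 NF-kB response genes tested, 4 lay higher (28.6%) and 2 lower (14.3%) without overlap, near the 24.1% and 15.6% of all genes, with a median of 0.16. Nfkbia, the inhibitor that NF-kB itself induces, read -1.48 and -1.98 against -0.93 and -0.59 (0.97 ± 0.28), and the interferon regulatory factor gene Irf1 read -0.27 and -0.79 against 0.20 and 0.13 (0.70 ± 0.28). Bcl3 and Nfkb2, further members of that pathway, differed by -0.64 ± 0.64 and -0.61 ± 0.41, with overlap. Among 13 TGF-beta and BMP targets, 2 lay above 0 and 11 below, and without overlap 1 was higher (7.69%, against 24.1% of all genes) and 4 lower (30.8%, against 15.6%). Their median of -0.35 was 0.006 after normexp and below 0 in the other 17 settings tried, and it was -0.10 on SEMA3E replicate 1 and -0.74 on replicate 2. Tgif1, a corepressor of SMADs, was higher on both, at -1.52 and -1.86 against -0.61 and -0.50 (1.14 ± 0.41). Id3, an inhibitor of bHLH factors, was lower on both, at -2.51 and -1.86 against -3.39 and -5.34 (-2.18 ± 0.81), and Skil, another corepressor, was low on replicate 2 alone.

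Notch, cAMP and clock genes also lay on both sides. Of the 8 Notch genes tested, 3 lay higher (37.5%, against 24.1% of all genes) and 4 lower (50%, against 15.6%) without overlap. The receptors Notch1 and Notch3 differed by 1.77 ± 0.88 and 1.62 ± 0.50 and the ligand gene Jag1 by -1.18 ± 0.32, at -3.25 and -2.63 against -4.05 and -4.19. Maml1, a coactivator of Notch, read -0.21 and -0.15 against -0.52 and -3.18 (-1.67 ± 0.73). It lay below both controls on both SEMA3E arrays and far lower on replicate 2. Of 16 cAMP and CREB genes tested, 2 lay higher (12.5%, against 24.1% of all genes) and 4 lower (25%, against 15.6%) without overlap. The phosphodiesterase genes Pde4d and Pde4b, which degrade cAMP, differed in opposite directions, by 1.68 ± 0.72 and -1.24 ± 0.48. Other tested probes of Pde4d differed by -0.33 and -0.57, and those of Pde4b by -0.41 and 0.16. Of 16 circadian and glucocorticoid genes tested, 4 lay higher (25%) and 3 lower (18.8%) without overlap, near the 24.1% and 15.6% of all genes. Nr1d1, the clock repressor REV-ERB alpha, read -7.58 and -6.55 against -6.05 and -5.41 (1.34 ± 0.49), and Klf9 read -3.42 and -3.07 against -2.79 and -2.02 (0.83 ± 0.35). Per1, a core clock gene, was at -1.46 on SEMA3E replicate 2 and above 1 on the other arrays, and Hlf, an output gene of the clock, differed by -0.80 ± 0.77; both were low on replicate 2 alone.

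The stress genes of ATF4 and p53 lay higher to nearly the same extent on both SEMA3E arrays. Of 24 tested, 19 lay above 0, 14 were higher without overlap (58.3%, against 24.1% of all genes) and 0 lower, with a median of 0.46, and 0 passed the test. Taken alone, SEMA3E replicate 1 gave 0.43 and replicate 2 gave 0.45, and the controls differed from each other by a median of -0.06. Ddit4, described above, led the list. Trib3, a pseudokinase induced by ATF4, read -0.67 and -1.23 in control and -0.89 and 2.08 with SEMA3E (1.55 ± 1.31), high on replicate 2 alone. At 8 h of SEMA3E, against the same controls, the list had a median of 0.80 and all genes had 0.11. The 2 h and 8 h comparisons are not independent. Under quantile normalization 12 of 24 were higher without overlap, against 3396 of 17386 genes in all, with a list median of 0.38. Under cyclic loess 11 of 24 were, against 3670 of 17386 genes in all, with a list median of 0.40. Scaling to the median of all probes lowered all genes alike, to a median of -0.54, and the list's median was then -0.13, with 5 of 24 higher without overlap (20.8%, against 2.96% of all genes).

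Of 17 heat shock genes tested, 7 lay higher (41.2%, against 24.1% of all genes) and 2 lower (11.8%, against 15.6%) without overlap. Their median of 0.17 was -0.10 on SEMA3E replicate 1 and 0.33 on replicate 2 taken alone, and -0.03 after quantile normalization; its difference from the stress list was not tested. Hspe1, a mitochondrial chaperonin, differed by 0.61 ± 0.26 and Hsf2, a heat shock factor, by 0.52 ± 0.45. Hspa8, the constitutive HSP70, differed by -1.07 ± 0.40 on its brightest probe, and by 0.51 and 0.43 on its other 2.

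**Figure D4:**
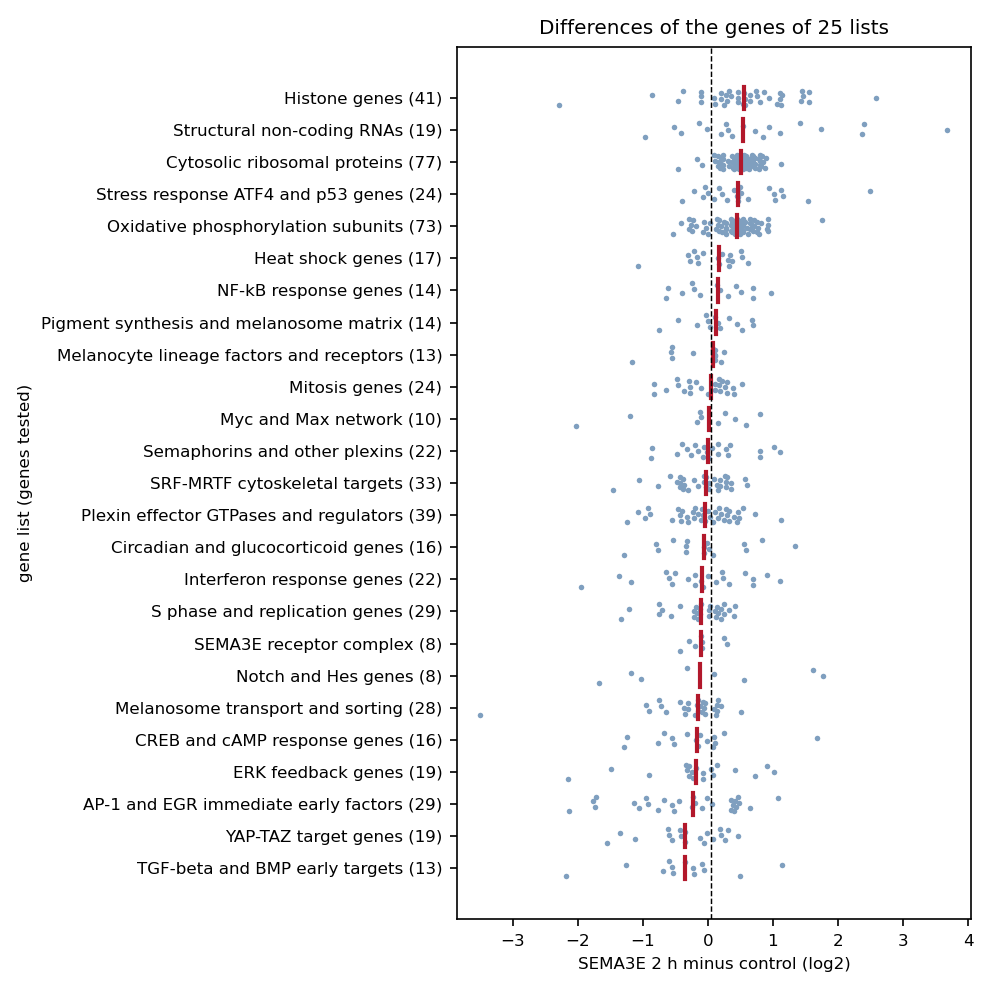
Difference between SEMA3E 2 h and control (x axis, log2) for each tested gene of 25 lists (points), with the list's median (red bar) and the median of all 17386 genes (dashed line, 0.05). The medians run from -0.35 for the TGF-beta and BMP targets to 0.55 for the histone genes.

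Several groups of housekeeping RNAs lay higher as lists. The cytosolic ribosomal proteins came first by count. Of 77 tested, 74 lay above 0, and 64 were higher without overlap (83.1%, against 24.1% of all genes and 36% of the 4347 brightest genes) and 0 lower. The median was 0.52, with 0.53 and 0.48 on the 2 SEMA3E arrays, and the controls differed by a median of -0.21. Rps28, of the small subunit, read 4.28 and 3.58 in control and 4.85 and 5.27 with SEMA3E (1.13 ± 0.33), and Rpl35, of the large subunit, read 3.18 and 2.95 against 3.64 and 4.29 (0.90 ± 0.30). The lowest were Rps9, at 5.02 and 4.75 against 5.39 and 3.46, and Rpl7a, whose brightest probe differed by -0.17 and its 4 others by 0.19 to 0.56. These genes are among the brightest on the array, and the shift depended on how bright genes were scaled. Quantile normalization gave a median of 0.125 with 26 of 77 higher without overlap, where all genes had -0.006 with 3396 of 17386. Cyclic loess gave 0.17 with 38 of 77, where all genes had 0.011 with 3670 of 17386. Scaling to the median of all probes gave -0.07, where all genes had -0.54. At 8 h the median was 0.06, against 0.11 for all genes.

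Messages of ribosomal proteins often begin with a C followed by pyrimidines, the 5′ terminal oligopyrimidine tract through which mTOR controls their translation. A C within 3 bases of the annotated start and at least 4 pyrimidines after it were found in 23 of the 57 tested ribosomal protein genes with an entry (40.4%), against 3125 of 27025 genes in all (11.6%). For the gene with the largest difference, the second largest and the lowest but 1, the 12 bases before and 18 from the start are shown on the gene's strand (RefSeq, GRCm38.p6), with a tract in capitals:
Rps28, chr17:33824545-33824574, minus: accgcgtgcggtctcgcgagagcgaaagtg
Rpl35, chr2:39005114-39005143, minus: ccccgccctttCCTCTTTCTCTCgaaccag
Rpl7a, chr2:26910795-26910824, plus: ccctcttctttCTTTCTCCagcagccgagc
The tract was thus absent at the annotated start of Rps28 and present in Rpl7a, and Rps9, the lowest of the list, held one too. Whether the difference varied with the tract across the list was not tested.

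The subunits of oxidative phosphorylation had a like median, 0.45, with 62 of 73 above 0, and 38 higher (52.1%, against 24.1% of all genes and 36% of the brightest) and 2 lower (2.74%, against 15.6%) without overlap. The controls differed from each other by -0.51 in the median, more than the list differed between groups, and the list's median was 0.175 without control replicate 2 and 0.68 without control replicate 1. Quantile normalization gave 0.198, cyclic loess 0.206, and scaling to the median of all probes -0.14, where all genes had -0.54. Ndufa11, of complex I, read -1.84 and -3.62 in control and -1.25 and -0.70 with SEMA3E (1.75 ± 0.54), and Atp5j2, of the ATP synthase, differed by 0.93 ± 0.39. Cox7c, of complex IV, was low on replicate 2 alone (-0.53 ± 0.79), and its other probes differed by 0.38 and 0.52.

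Histone genes had the highest median, 0.55, with 34 of 41 above 0, and 20 higher (48.8%, against 24.1% of all genes) and 2 lower (4.88%, against 15.6%) without overlap. Here too the controls were apart, by a median of -0.66, and the list's median was 0.27 without control replicate 2 and 0.98 without control replicate 1. H1f4 led, and H4c4, an H4 gene, read -1.16 and -2.85 against -0.71 and -0.17 (1.56 ± 0.60). H1f0, the linker histone of resting cells, had 1 high control, at -6.70 and -3.54 against -6.92 and -7.90, and H4c8 differed by -0.85 ± 0.66; both were above background on neither SEMA3E array. Copies of histone and ribosomal protein genes resemble each other, and a probe can read more than 1 of them. Slbp, the protein that binds the stem-loop of histone messages, went the other way, at -0.39 and -0.49 in control and -2.18 and -1.38 with SEMA3E (-1.34 ± 0.31), with its second probe at -1.08.

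Of the structural and long non-coding RNAs, 19 of 38 were tested, 14 lay above 0, and 10 were higher (52.6%, against 24.1% of all genes) and 3 lower (15.8%, near the 15.6% of all genes) without overlap. The median was 0.54, with 0.20 on SEMA3E replicate 1 and 0.76 on replicate 2, and it was 0.31 without control replicate 2. Below Rmrp and Kcnq1ot1, the lowest were Snhg5, a host of small nucleolar RNAs, at -4.42 and -4.62 against -5.18 and -5.80 (-0.97 ± 0.29), and Terc, the telomerase RNA, at -0.52 ± 0.38.

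**Figure D5:**
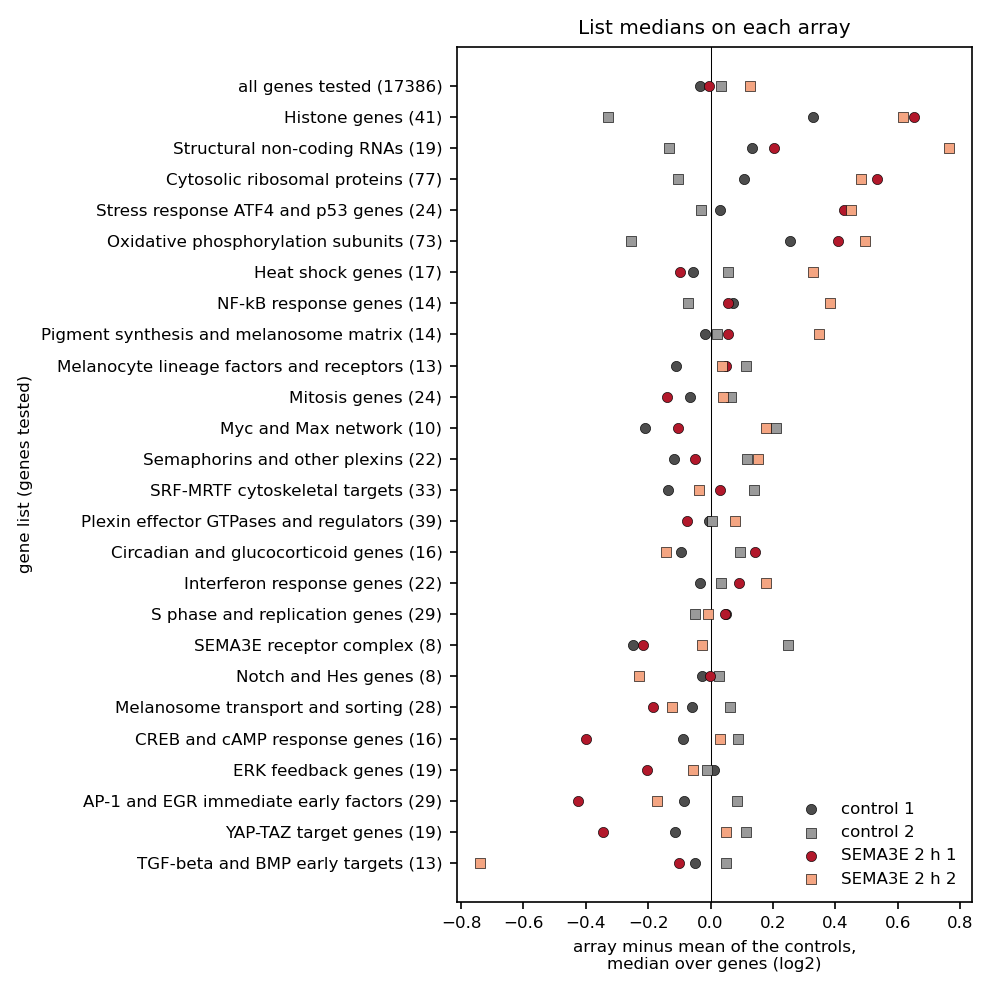
For each of 25 gene lists and all genes tested, the median over genes of an array's level minus the mean of the 2 controls (x axis, log2), for control replicates 1 and 2 (grey) and SEMA3E 2 h replicates 1 and 2 (red and orange). The stress and ribosomal protein lists lie at 0.43 to 0.53 on both SEMA3E arrays, and the controls of the histone and oxidative phosphorylation lists are spread wide.

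The pigment program was present and little shifted as a list. Of 14 genes of pigment synthesis and the melanosome matrix, 5 lay higher (35.7%, against 24.1% of all genes) and 1 lower (7.14%, against 15.6%) without overlap, with a median of 0.13. Tyrp1, an enzyme of melanin synthesis, read 4.04 and 3.91 in control and 4.43 and 4.91 with SEMA3E (0.70 ± 0.27). Mlana, a melanosome membrane protein, differed by 0.67 ± 0.24, also without overlap, and Pmel, which builds the fibrils of the organelle, read 3.80 and 3.90 against 4.11 and 4.49 (0.46 ± 0.27). Tyr, the rate-limiting enzyme, was lower on both arrays, at 0.24 and 1.11 against -0.02 and -0.14 (-0.75 ± 0.34). Its other probes differed by -2.02 and -1.63, the first of them above background on neither SEMA3E array. In the authors' deposited table the difference of Tyr turned sign. Dct, the next enzyme, differed by 0.03 ± 0.27 on the brightest probe, and by 0.52 to 0.87 on its other 3. Mitf, the master regulator of the lineage, differed by 0.11 ± 0.27, and its other probes by -0.13, 1.38 and 1.46. In the last 2, control replicate 2 alone was low, at -2.335 and -2.398. Control replicate 1, at 0.17 and 0.69, lay near the SEMA3E arrays. Of 13 lineage factors and receptors tested, 1 lay higher (7.69%, against 24.1% of all genes) and 2 lower (15.4%, near the 15.6% of all genes) without overlap. Tfeb (-1.17 ± 0.89), a lysosomal factor related to Mitf, and the receptor gene Kit (-0.57 ± 0.61) had the lowest differences.

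In the machinery that moves melanosomes, Rab27a and its linker were lower and the motor was not. Mlph, the melanophilin that joins RAB27A to myosin Va, read 0.07 and 0.46 in control and -0.86 and -0.40 with SEMA3E (-0.90 ± 0.29), without overlap. Myo5a, the motor, read 1.35 and 1.23 against 1.49 and 1.41 (0.16 ± 0.32), with other probes at -0.22 and 0.01. Rab38, a GTPase that delivers pigment enzymes, read 3.15 and 3.06 against 3.41 and 3.82 (0.51 ± 0.26), and Stx12, an endosomal SNARE, differed by -0.95 ± 0.48. Of 28 genes of transport and sorting tested, 4 lay higher (14.3%, against 24.1% of all genes) and 6 lower (21.4%, against 15.6%) without overlap, with 21 below 0 and a median of -0.15.

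At 8 h of SEMA3E, set against the same controls, the leading genes did not all keep their distance. Rab27a was at -1.49 and -0.63, near its controls, and Mlph differed by 0.37. Kcnq1ot1 was at -5.33 and -4.93 and H1f4 at -1.47 and -1.62, also near control, while Rmrp was at -4.14 and -4.42, above it (1.39). Myc was at -0.11 and -0.27, below both controls as at 2 h (-1.28), and Ddit4 at -0.43 and -1.67, above both (2.09). Ccn2 differed by -0.88 and Ccn1 by -0.65 at 8 h. In no gene named here did the difference between 8 h and 2 h pass the test.

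Interferon and cell cycle genes had medians near 0. Of 22 interferon genes tested, 6 lay higher (27.3%, against 24.1% of all genes) and 1 lower (4.55%, against 15.6%) without overlap, with a median of -0.09. The antiviral GTPase Mx2 read -6.19 and -6.52 against -5.45 and -5.03 (1.11 ± 0.28), and Stat2, a transducer of interferon signals, read -2.50 and -2.72 against -1.79 and -1.59 (0.92 ± 0.27). Its partner Irf9 and the kinase gene Cmpk2 were low on SEMA3E replicate 2 alone (-1.36 ± 0.69 and -1.95 ± 1.07), and the second probe of Cmpk2 differed by 0.71. Of 29 S phase genes tested, 5 lay higher and 5 lower without overlap (17.2% each, against 24.1% and 15.6% of all genes), with a median of -0.10 and with Mcm2, of the replicative helicase, at 0.09 and 0.30 against -0.25 and -1.79 (-1.21 ± 0.47). Of 24 mitosis genes, 7 lay higher (29.2%, against 24.1% of all genes) and 2 lower (8.33%, against 15.6%) without overlap, with a median of 0.06. Mki67, the proliferation marker, differed by 0.53 ± 0.28 and by 0.10 on its second probe. The kinesins Kif11 and Kif23 differed by -0.83 ± 0.56 and -0.82 ± 0.39.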

How the data were processed

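The authors deposited a scanner file per array, made with Agilent Feature Extraction 11.5.1.1 per the file headers. Its processed signal is a linear spot intensity after background subtraction. The authors also deposited a table of intensity per gene name, used as an alternative. Control spots and outlier spots were left out, and spots of a probe were averaged. The log2 intensity was scaled per array by its 75th percentile, taken over 18687 probes that all 8 arrays measured above background, so a difference of 1 is 2-fold. A probe was tested with values on 8 arrays and signal above background on both control or both SEMA3E 2 h arrays; a gene took its brightest probe. limma 3.58.1 (R 4.3.3) fitted the 4 group means, leaving 4 residual degrees of freedom, and gave two-sided Benjamini-Hochberg adjusted p-values. The design was checked on simulated data, and the number of arrays limits precision, with a median standard error of 0.33.

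Genes were named by a rule. Its first part took the 12 widest gaps between groups each way among genes above background on all 4 arrays. Its second part took the 4 widest each way measured in 1 group only. Both parts left out clone and locus names. The 3 smallest p-values each way, the 2 largest differences each way in a list, and 20 set genes were added. Of the list genes, those that differed by under 0.5 are counted and not named, a limit chosen after their values were seen. Exceptions are the set genes, Rps9 and Rpl7a, and Nrp2 and Itgb1, which are given for their second probes. The members and lists were chosen with earlier results of these data known. Of 736 list genes, 609 were tested. Symbols were updated through RefSeq, which matched 27673 of 55698 probes. Promoter sequences are the first entry per gene of a RefSeq table. Probe coordinates were not given in the sources used here. Figures were drawn with matplotlib in Python.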

Additional observations from a re-analysis of the deposited data

How the results depend on the processing

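Across the settings tried, 0 genes changed except in these. The count was 1 after normexp background correction (3338 under 0.06), 24 when scaled to the median of all probes (4 higher, 20 lower), 28 in the authors' deposited table (all higher), and 0 to 484 when 1 array was left out. The 4188 genes with both SEMA3E arrays above both controls became 9074 after normexp, 514 with the median of all probes, 16810 with no filter on background, and 6041 to 7536 with 1 array left out. The 2719 below both became 940 after normexp, 10307 with the median of all probes, and 4289 to 6427 with 1 array left out, where fewer arrays overlap less. The cause of the other shifts was not tested. Whether the replicate numbers pair the samples is not known. Deviations of same-numbered arrays correlated between -0.146 and 0.155, and at 0.147 between control and SEMA3E 2 h, which cannot decide it. The limma fit with the replicate block called 0 genes, with 1593 at an unadjusted p under 0.05 against 1717.

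These gene differences turned sign. After normexp they were 0.70 for Timm29, 0.41 for Traf3ip1, 0.42 for Zfp983, 0.58 for Zfp324, 0.30 for Actn1, 0.66 for Terc, 0.59 for Hlf, 0.81 for Spry4, 0.79 for H4c8, 0.015 for Pde4b, 0.91 for Sema3e, 0.24 for Tfeb, 0.71 for Kit, 0.145 for Mga, 0.10 for Sema3c, 0.37 for Plxna1 and 0.40 for Gm5039. Scaling to the median of all probes lowered all genes alike, from a median of 0.05 to -0.54, and so turned any small positive difference. With it they were -0.015 for Tagln, -0.061 for Mki67, -0.079 for Rab38, -0.071 for Hsf2, -0.001 for Max, -0.48 for Mitf, -0.56 for Dct, -0.13 for Pmel and -0.43 for Myo5a. Quantile normalization gave -0.033 for Actb, -0.22 for Mitf and -0.47 for Dct, cyclic loess -0.20 for Mitf and -0.40 for Dct, and removal of a GC trend, chosen after seeing the data, -0.034 for Dct. The deposited table gave 0.83 for Per1, 0.052 for Cox7c, 0.29 for Tyr, 0.18 for Rpl7a, 0.48 for Sema3c and -0.042 for Myo5a. The mean of a gene's probes gave 0.12 for Cox7c, 0.25 for Rpl7a and -0.018 for Myo5a. With only probes above background on all 4 arrays, Cmpk2 was 0.71.

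With 1 array left out, the differences that turned ran for Bcl3 from -1.71 to 0.43, Cfl2 from -2.65 to 0.17, Cmpk2 from -3.96 to 0.055, Cox7c from -1.93 to 0.87, Dct from -0.22 to 0.28, Egr1 from -0.065 to 2.23, Hlf from -1.89 to 0.295, Jun from -0.24 to 1.55, Mitf from -0.081 to 0.31, Per1 from -2.64 to 0.077, Rps9 from -1.42 to 0.51, Sema3e from -0.62 to 0.048, Skil from -2.635 to 0.14, Srf from -2.13 to 0.029 and Tfeb from -2.705 to 0.365.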
